A study of Mus musculus with 6 samples.

Results

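The 38 genes described here are genes known for marking astrocytes or for marking their reactive state, out of 19938 genes that the arrays could name and test. Each was taken by its symbol from the rows that the array annotation assigns to exactly 1 gene, and where a gene had several such rows the one with the highest mean over the 6 arrays stood for it. All 38 had such a row. The arrays measured total RNA of primary cultures prepared from brains of OF1 mouse embryos at embryonic day 17. The cells had differentiated in fetal calf serum into a mixture of neurons and glia, so every array reads a mixed population. The 3 control arrays came from cultures that received vehicle in serum-free medium lacking growth factors. The 3 treated arrays came from cultures in the same medium with 1,25-dihydroxyvitamin D3 (1,25D), the hormonal form of vitamin D, at 10 nM. Both groups share strain, age and medium. How long the cells were treated, and whether cultures of one replicate number shared a litter or a day, is not stated in the labels. The comparison addresses which genes the hormone induces in such cultures, here for the astrocytes among them.

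Astrocytes are the glial cells that supply neurons with substrates, clear transmitter and potassium, and cover blood vessels with water channel-rich endfeet. Their identity rests on transcription factors such as Sox9 and Nfia, and they are recognised by the filament protein Gfap, the water channel Aqp4, the folate enzyme Aldh1l1 and the connexin Gja1. After injury or inflammation they become reactive, with more filament protein, protease inhibitor and cytokine receptor. The vitamin D receptor is a ligand-activated transcription factor found in neurons and glia.

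The astrocyte genes gave a strong signal in these cultures. Of the 38, 32 lay among the 25% of genes with the highest signal, and 2, Gjb6 and Gpc5, lay among the 25% with the lowest. Signal differs between probe sets for reasons other than transcript number, so levels of different genes are not set against each other below. Differences of the dim Gjb6 and Gpc5 are compressed by the array summary. All values below are log2 intensities, and all differences are treated minus control on that log2 scale. None of the 38 genes held the identical replicate 1 values in both groups that 5.49% of all genes showed.

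None of the 38 astrocyte genes was called higher or lower after treatment (limma, adjusted p under 0.05 over all genes). Over all genes 0.0251% passed. With the replicate number as a block, that is with same-numbered cultures compared with each other, none of the 38 passed either, against 0.0903% of all genes. At an unadjusted p under 0.05, 2 of the 38 stood out without the block, F3 above 0 and Slc14a1 below 0, against 1.48% of all genes. With the block there were 8 of the 38, against 5.78% of all genes. These were F3, with a higher mean, and Slc14a1, Serpina3n, Ntsr2, Cd109, Osmr, Aldh1l1 and Nfia, with lower means; 2.61% of all genes were on that lower side. The smallest adjusted p among the 38 was 1.00 without the block and 0.29 with it, both rounded. In bulk RNA, fewer astrocytes and less RNA of these genes per astrocyte cannot be told apart.

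The median difference over the 38 genes was -0.06, beside 0.01 over all genes. Over the 4985 genes of highest signal, where 32 of the 38 lie, it was -0.02. Without the dimmest 25% of genes, 27 of 36 were below 0, against 50.6% of all genes left. Of the 38, 28 had a mean difference below 0, against 47.0% of all genes (26 of the 38 against 50.5% after quantile normalization, and 31 against 56.3% after median centring). The median was -0.20 in pair 1, -0.02 in pair 2 and 0.01 in pair 3, where a pair is the 2 cultures with the same replicate number. In pair 1, 31 of the 38 were lower in the treated culture, against 45.4% of all genes. In pair 2 there were 21, against 42.8%, and in pair 3 there were 18, against 52.1%. With both cultures of number 1 left out of the blocked fit, the median was 0.03 with 18 genes below 0. It was -0.08 with 26 below 0 without number 2, and -0.09 with 29 below 0 without number 3. With 1 culture left out and no block, the median was 0.01 with 19 below 0 without 1,25D replicate 1, and 0.02 with 17 below 0 without control replicate 2, where the remaining culture of that number has no partner. It was -0.06 with 26 below 0 without control replicate 1, and -0.14 with 28 without control replicate 3. It was -0.15 with 31 below 0 without 1,25D replicate 2, and -0.03 with 23 without 1,25D replicate 3. Lower in all 3 pairs were 11 genes (11.0% of all genes were), and higher in all 3 pairs were 3 genes, F3, Fgfr3 and Gldc (14.8% of all genes were).

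**Figure D1:**
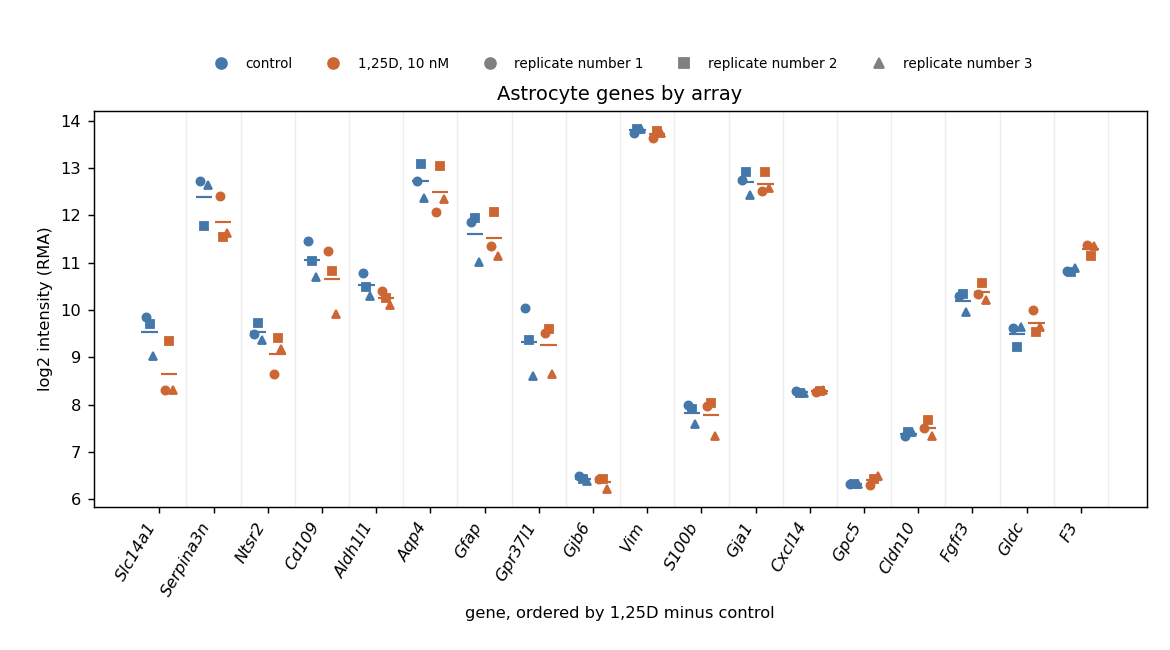
Log2 intensity on each of the 6 arrays for 18 astrocyte genes, in order of treated minus control, with controls in blue, 1,25D cultures at 10 nM in orange, a symbol for each replicate number and a bar for the group mean. F3 at the right is the single gene whose groups do not overlap, and Slc14a1 at the left has the largest difference below 0, -0.88.

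F3 encodes tissue factor, the membrane receptor that starts blood coagulation, and is known as a surface marker of astrocytes. Its log2 intensity was 10.83, 10.81 and 10.88 in control cultures 1, 2 and 3, and 11.38, 11.13 and 11.35 in treated cultures 1, 2 and 3. All treated cultures were above all controls, and F3 was the only one of the 38 genes whose groups did not overlap; 4.15% of all genes were so, 2.63% in the higher direction. The mean was 10.84 ± 0.04 in controls and 11.29 ± 0.13 in treated cultures (SD, n = 3 each), a 1.36-fold higher level. The difference of 0.45 ± 0.10 (SE) had a 95% interval of 0.21 to 0.68 that is not adjusted for the number of genes. It did not pass, its limma adjusted p being 1.00 unblocked and 0.29 blocked. The controls of F3 were unusually close together, with an SD of 0.04 where the median over the 38 genes was 0.24. With 1 culture left out the difference stayed between 0.40 and 0.52.

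Upstream sequence was read from RefSeq on GRCm38.p6, which lists 37 start windows of 300 bases (250 before and 50 after a start) for 30 of the 38 genes. None of the 37 windows held the DR3 element, the paired direct repeat with a 3-base spacer that binds the vitamin D receptor with its partner RXR, searched on both strands; 0.256% of all 32851 windows held it. A match, or its absence, says only what letters are in the window. The 250 bases before the start of F3 are shown because F3 was the only gene with separate groups. They lie on the plus strand of chromosome 3, chr3:121723287-121723536, and the capitals mark the AP-1 motif, spelled TGANTCA with C or G at N. The motif is known to bind Fos and Jun proteins and occurred in 5.20% of all windows. Gja1 was the other of the 38 genes with it.
F3: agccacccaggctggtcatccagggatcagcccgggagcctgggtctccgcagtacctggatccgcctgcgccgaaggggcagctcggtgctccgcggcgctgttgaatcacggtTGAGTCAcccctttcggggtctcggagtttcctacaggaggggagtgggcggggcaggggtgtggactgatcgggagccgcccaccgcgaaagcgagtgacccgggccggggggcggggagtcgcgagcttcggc

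Among the filament and reactivity genes all 6 means were below 0, with a median of -0.18 (5 of 6 after quantile normalization, where Tnc was at 0.01). None passed. Gfap, the filament protein that defines astrocytes in stained tissue, had 11.87, 11.95 and 11.00 in control cultures 1, 2 and 3 and 11.36, 12.06 and 11.15 in treated cultures 1, 2 and 3. Number 2 was highest and number 3 lowest in both groups, and the ranges overlapped almost fully. The mean was 11.61 ± 0.52 in controls and 11.52 ± 0.48 in treated cultures (SD, n = 3 each). The difference was -0.08 ± 0.31 (SE), with a 95% interval of -0.80 to 0.63. Vim, the filament protein that astrocytes share with progenitors and mesenchymal cells, was far more even. It had 13.73, 13.81 and 13.83 in the controls and 13.63, 13.78 and 13.73 in the treated cultures. Its difference was -0.07 with a 95% interval of -0.29 to 0.15.

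Serpina3n, a secreted serine protease inhibitor and a widely used reactive astrocyte marker, had 12.73, 11.76 and 12.63 in control cultures 1, 2 and 3. The treated cultures had 12.41, 11.53 and 11.63. Each treated culture was below the control of its number, with pair differences of -0.32, -0.23 and -1.002, but the groups overlapped because number 2 was low in both. The difference was -0.52 ± 0.31 (SE), and its limma adjusted p was 1.00 unblocked and 0.68 blocked. With 1 culture left out it lay between -0.83 (without control replicate 2) and -0.34 (without control replicate 1). Serpina3n lies in a cluster of closely related genes, and whether its probes also read those was not tested. Cd109, a membrane protein that binds TGF-beta and its receptors, had 11.46, 11.03 and 10.70 in the controls and 11.24, 10.83 and 9.92 in the treated cultures. It too was lower in each pair, and the third treated culture was the lowest of the 6. Its difference was -0.40 ± 0.33 (SE), and -0.03 without 1,25D replicate 3. Osmr, the oncostatin M receptor, had -0.36, -0.16 and -0.33 in pairs 1, 2 and 3 and a mean difference of -0.28 ± 0.17 (SE). Tnc, a matrix glycoprotein of immature and reactive astrocytes, had a difference of -0.002 ± 0.20 (SE).

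The STAT palindrome, TTC and GAA with any 3 bases between them, which binds the STAT proteins activated by cytokine receptors such as Osmr, was searched in the same RefSeq windows because STAT3 drives Gfap in reactive astrocytes. It occurred in 5 of the 37 windows of these genes (13.5%) and in 8.30% of all windows. The motif reads the same in outline on both strands and does not overlap the other motifs searched here. The matches are shown with 10 bases to each side, on the strand of the gene and with the motif in capitals. They lie at chr11:102897184-102897212 (minus strand) for Gfap, chr11:78324064-78324092 and chr11:78324105-78324133 (plus strand) for Aldoc, chr12:16653398-16653426 (plus strand) for Ntsr2, chr9:54661893-54661921 (minus strand) for Acsbg1 and chr13:56296724-56296752 (minus strand) for Cxcl14.
Gfap: atgggggtgcTTCCAGGAAgtcaggggca
Aldoc, upstream match: aggggccagaTTCAGTGAAagaagagctg
Aldoc, downstream match: tggcagcagtTTCCAGGAAgacctgtggc
Ntsr2: gttttggaggTTCCCAGAAaggaggtggt
Acsbg1: gaaggctggcTTCATTGAAattctcctca
Cxcl14: aacctgtgtgTTCTGAGAAgtgtccacag
The nearer Aldoc match and the Gfap match, which spans the listed start, share the core TTCCAGGAA. The differences of the genes with a match ranged from -0.45 for Ntsr2 to 0.03 for Cxcl14. The full NFI palindrome, the site of Nfia and Nfib, was in none of the 37 windows and in 0.0365% of all windows.

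Among the water channel, junction and adhesion genes none passed, and 5 of 6 means were below 0 with a median of -0.04. Aqp4, the water channel of astrocyte endfeet, had 12.72, 13.09 and 12.36 in control cultures 1, 2 and 3 and 12.07, 13.05 and 12.34 in treated cultures 1, 2 and 3. Treated culture 1 stood below the other 5, and pairs 2 and 3 differed by -0.04 and -0.02. The difference was -0.23 ± 0.27 (SE), and -0.03 without 1,25D replicate 1. Gja1, the main connexin of astrocyte gap junctions, had 12.75, 12.92 and 12.43 in the controls and 12.51, 12.92 and 12.58 in the treated cultures. Its difference was -0.03 ± 0.16 (SE), with a 95% interval of -0.40 to 0.34. Mlc1 and Hepacam, which form an adhesion complex of the endfeet, had differences of -0.05 and -0.01, and both were lower in pairs 1 and 2 and higher in pair 3. Gjb6, a second astrocyte connexin that appears late in development, was dim and even, at 6.49, 6.44 and 6.40 in the controls and 6.43, 6.44 and 6.22 in the treated cultures. Cldn10, a claudin, had 7.33, 7.42 and 7.42 in the controls and 7.52, 7.68 and 7.33 in the treated cultures, with a difference of 0.12. A second row for Cldn10 gave 0.09.

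The transporters held the largest difference of the whole set. Slc14a1, a urea transporter of astrocytes, had 9.86, 9.71 and 9.02 in control cultures 1, 2 and 3 and 8.31, 9.34 and 8.31 in treated cultures 1, 2 and 3. Each treated culture was below the control of its number, with pair differences of -1.55, -0.37 and -0.71, and the groups overlapped only because treated culture 2 lay above control 3. The mean was 9.53 ± 0.44 in controls and 8.65 ± 0.60 in treated cultures (SD, n = 3 each). The difference was -0.88 ± 0.32 (SE), with a 95% interval of -1.62 to -0.13 not adjusted for the number of genes. The limma adjusted p was 1.00 unblocked and 0.51 blocked. With 1 culture left out the difference lay between -1.22 (without 1,25D replicate 2) and -0.70 (without 1,25D replicate 1).

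The other 5 transporters and pumps were closer to 0. Slc15a2, a peptide transporter, had a difference of -0.21, made of -0.75, -0.16 and 0.29 in pairs 1, 2 and 3. Slc25a18, a glutamate carrier of the mitochondrial membrane, had -0.05 and Slc39a12, a zinc transporter, had 0.10, and both were lower in pair 1 and higher in pair 3. Atp1b2, the glial beta subunit of the sodium pump, had -0.06, and Slc4a4, the sodium bicarbonate cotransporter, had -0.003 with pairs between -0.04 and 0.04. None passed.

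**Figure D2:**
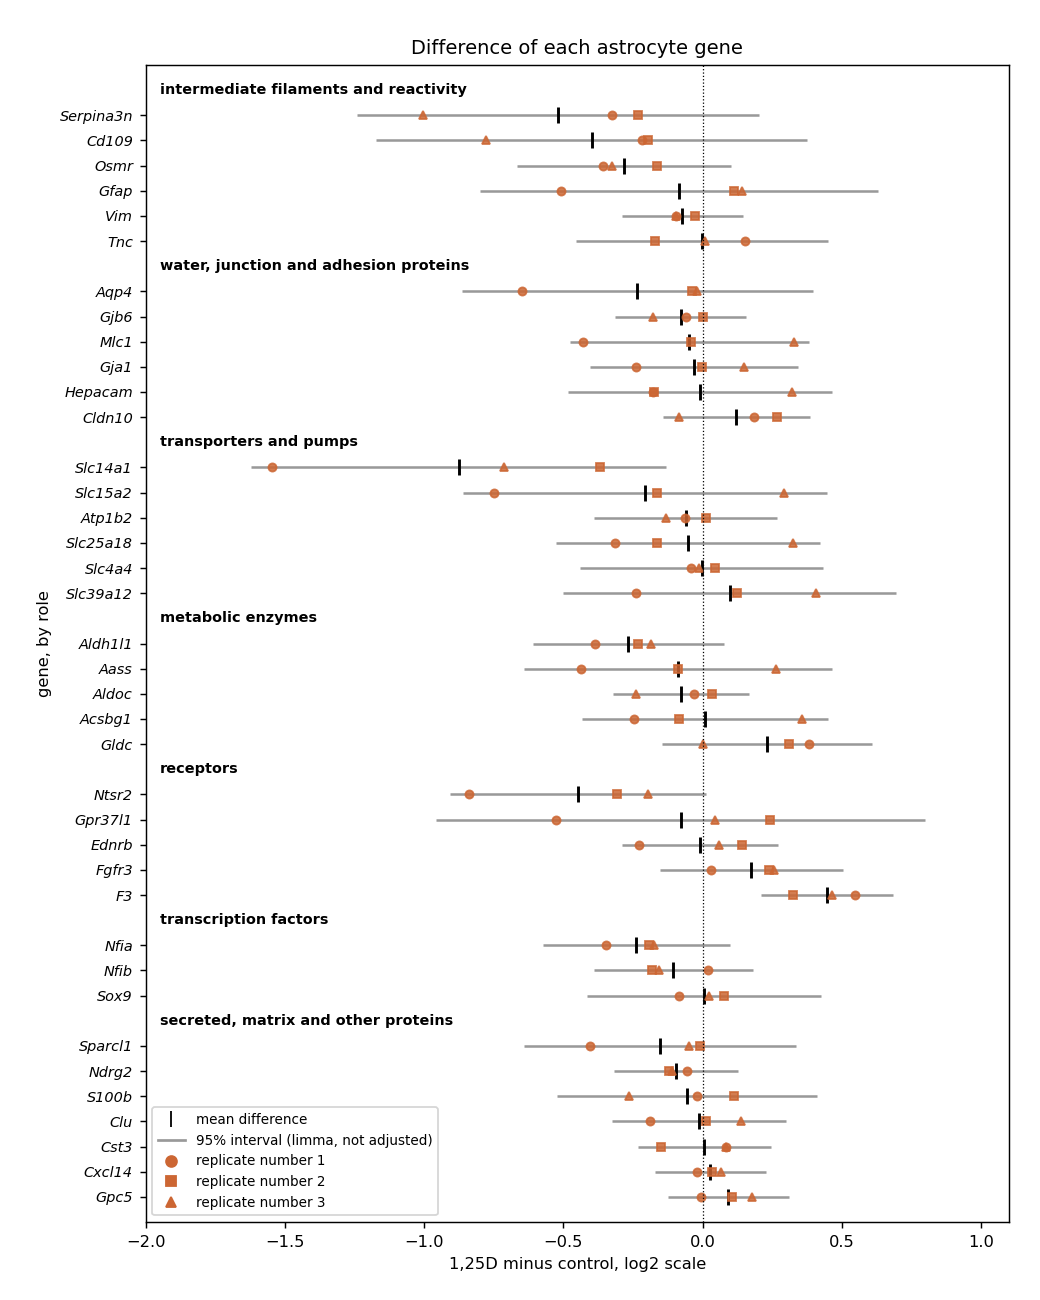
Treated minus control on the log2 scale for each of the 38 astrocyte genes, grouped by role, with the mean difference as a black tick, its unadjusted 95% limma interval as a grey line and the 3 pairs as symbols. Only the intervals of Slc14a1 (-1.62 to -0.13) and F3 (0.21 to 0.68) do not cover 0, and the circles of pair 1 lie left of 0 for 31 of the 38 genes.

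Among the metabolic enzymes none passed, and 3 of 5 means were below 0. Aldh1l1, a folate enzyme that labels nearly all astrocytes, had 10.78, 10.49 and 10.29 in control cultures 1, 2 and 3 and 10.40, 10.26 and 10.10 in treated cultures 1, 2 and 3. The same order of numbers, 1 above 2 above 3, held in both groups, and each treated culture was below its control, with pair differences of -0.39, -0.23 and -0.19. The difference was -0.27 ± 0.15 (SE), with a 95% interval of -0.61 to 0.08 and a limma adjusted p of 0.70 with the block. Gldc, the glycine cleavage enzyme, had 9.61, 9.23 and 9.64 in the controls and 10.00, 9.54 and 9.64 in the treated cultures, with pair 3 equal to 2 decimals. Its difference was 0.23 ± 0.16 (SE). Aldoc, the brain aldolase of glycolysis, had -0.08, Aass, which degrades lysine, had -0.09, and Acsbg1, an acyl-CoA synthetase, had 0.01.

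The receptors beside F3 differed in sign, and none passed. Ntsr2, a neurotensin receptor found mainly in astrocytes, had 9.49, 9.72 and 9.37 in control cultures 1, 2 and 3 and 8.65, 9.42 and 9.18 in treated cultures 1, 2 and 3. Its groups overlapped only through treated culture 2. The difference was -0.45 ± 0.20 (SE), -0.23 without 1,25D replicate 1, with a 95% interval of -0.91 to 0.01 and a limma adjusted p of 0.68 with the block. Fgfr3, a fibroblast growth factor receptor of astrocytes and their precursors, had 10.30, 10.33 and 9.96 in the controls and 10.33, 10.57 and 10.22 in the treated cultures, higher in each pair by 0.03, 0.24 and 0.26. Its difference was 0.18 ± 0.14 (SE). Gpr37l1, an orphan receptor of astrocytes, varied most between controls, with 10.03, 9.36 and 8.61 there and 9.51, 9.60 and 8.65 in the treated cultures. Its control SD was 0.71, the highest of the 38, and its 95% interval ran from -0.96 to 0.80 around a difference of -0.08. Ednrb, the endothelin B receptor, had a difference of -0.01 and a control SD of 0.06.

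The transcription factors that set up astrocyte fate did not pass. Nfia, a nuclear factor I protein that starts gliogenesis, was lower in each pair, with pair differences of -0.34, -0.19 and -0.17, and had a difference of -0.24 ± 0.14 (SE). A second row of Nfia gave -0.55, -0.10 and 0.13 in the pairs and a difference of -0.17, so the third pair changed sign between rows. Its relative Nfib had a difference of -0.11, and -0.24 in its second row. Sox9, which acts with Nfia, had a difference of 0.00 ± 0.18 (SE).

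Of the secreted, matrix and other proteins none passed, and 4 of 7 means were below 0. S100b, a calcium-binding protein of mature astrocytes, had 7.99, 7.92 and 7.60 in control cultures 1, 2 and 3 and 7.97, 8.03 and 7.33 in treated cultures 1, 2 and 3. Number 3 was lowest in both groups, and the difference was -0.06 ± 0.20 (SE). Sparcl1, a secreted protein that promotes synapse formation, had -0.15, Ndrg2 had -0.10, Clu, the chaperone clusterin, had -0.01 and Cst3, the protease inhibitor cystatin C, had 0.01. Cxcl14, a chemokine, spanned 8.24 to 8.31 over all 6 arrays, the narrowest range of the genes given in full. Gpc5, a glypican, was dim, with 6.32, 6.33 and 6.33 in the controls and 6.32, 6.44 and 6.50 in the treated cultures.

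The size of what could have been seen is set by the spread between cultures. The median control SD was 0.24 over the 38 genes, 0.16 over the 4985 genes of highest signal and 0.15 over all genes. The SE of a difference ranged from 0.09 to 0.38 over the 38. For 35 of them the unadjusted 95% interval lay within a 2-fold change either way, and for 23 within a 1.5-fold change; over all genes these shares were 98% and 88.1%. Slc14a1, Serpina3n and Cd109 were the 3 whose interval reached beyond 2-fold.

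Part of this spread was shared by cultures of the same replicate number. The culture number with the highest value was the same in both groups for 27 of the 38 genes, against 56.7% of all genes. Among controls, culture 2 was the highest for 22 of the 38 (23.6% of all genes) and culture 3 the lowest for 21 (35.3% of all genes). Both held for 13 of the 38 (15.1% of all genes). The median over the 38 was 11.43, 11.67 and 11.27 in control cultures 1, 2 and 3. It was 11.30, 11.57 and 11.34 in treated cultures 1, 2 and 3. The median over all genes lay between 7.91 and 7.98, but RMA normalizes the arrays to each other, so this evenness is no separate result. Some genes ran the other way. Number 2 was lowest in both groups for Serpina3n, F3 and Gldc, and in the controls alone for Osmr and Aldoc. The difference between treated and control was smaller than 1 control SD for 24 of the 38, against 78.5% of all genes.

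**Figure D3:**
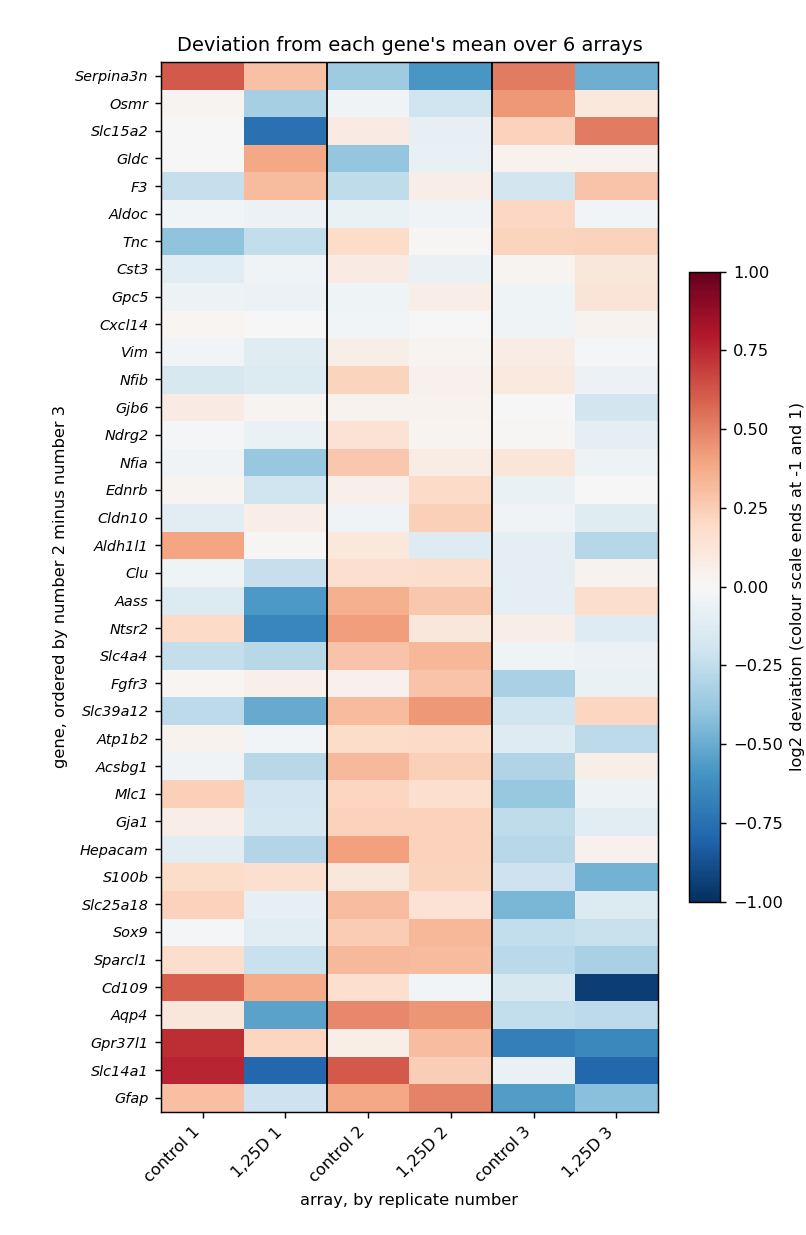
Deviation of each of the 38 astrocyte genes from its own mean over the 6 arrays, in log2 units, with arrays set side by side by replicate number and genes ordered by the level of number 2 minus number 3. Among the controls, number 2 is the highest for 22 of the 38 genes and number 3 the lowest for 21. Serpina3n at the top is among the genes that run the other way.

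Genes of other cells varied between the cultures too. The mean log2 level of 10 ciliated ependymal genes was 8.21, 8.29 and 7.47 in control cultures 1, 2 and 3 and 7.77, 7.99 and 7.86 in treated cultures 1, 2 and 3. Their summed linear intensity spanned 2381 to 4520 in controls and 3139 to 3683 in treated cultures, and the list median was -0.50, -0.32 and 0.46 in pairs 1, 2 and 3. Mlc1, Hepacam, Slc25a18, Slc15a2, Aass, Acsbg1 and Gja1 had the same signs over the pairs, with Gja1 at -0.002 in pair 2. How many of all genes had these signs was not counted, so a link to ependymal cells was not tested. The summed intensity of 10 fibroblast genes spanned 5907 to 8133 in controls and 7188 to 10655 in treated cultures. Their list median was 0.06, with 3 of the 10 below 0, so they did not rise together. The largest differences were 1.14 for Fbln1, a matrix protein, 0.84 for Islr and 0.42 for Col1a1. Fbln1 was called higher (limma adjusted p = 0.022 in both fits). That call was lost when any 1 culture was left out without the block. Fibroblasts also express Vim, and their part, like that of ependymal cells, in the values above was not tested. The neuron list (20 genes) had a median of 0.00, the oligodendrocyte lineage list (14) of -0.03, the microglia and macrophage list (17) of 0.05, the endothelial list (10) of 0.04, the pericyte and smooth muscle list (10) of -0.01 and the progenitor list (11) of -0.02. No gene of these 6 lists passed in either fit. A list median does not show single genes. In the pericyte list Pdgfrb had 0.48 ± 0.20 (SE), higher in each pair, and Cnn1 had -0.59 ± 0.33 (SE), lower in each pair. The groups were separate in the lower direction for Rbfox3 of the neuron list and Tagln of the pericyte list. They were separate in the higher direction for Cx3cr1 and C1qc of the microglia list, and for Fbln1 and Col1a1 of the fibroblast list. Apart from Fbln1, which was called, these genes were picked after their values were seen. Separate groups were found for 4.15% of all genes, 2.63% in the higher and 1.52% in the lower direction.

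The genes that are known to rise in reactive astrocytes of many kinds were looked at as a list of 13, of which Gfap, Vim, Serpina3n and Osmr are among the 38. None passed in either fit. At an unadjusted p under 0.05 there were 0 of the 13 without the block and 4, all lower, with it, against 1.48% and 5.78% of all genes (2.61% lower with the block). All 13 had a mean difference below 0, against 47.0% of all genes, also after quantile normalization and after median centring. The median was -0.28, and -0.33 over the 9 genes not among the 38. Lower in all 3 pairs were 7 of the 13 (11.0% of all genes were), 6 after quantile normalization. This list was chosen with earlier results of these data known, so its counts cannot be read as an excess over the shares of all genes. Timp1, an inhibitor of matrix metalloproteinases, had -0.20, -0.31 and -0.83 in the pairs, and Cxcl10, an interferon-induced chemokine, had -0.58, -0.13 and -0.27. Steap4, a metalloreductase, had 10.87, 8.61 and 8.97 in control cultures 1, 2 and 3 and 8.34, 8.35 and 9.09 in treated cultures 1, 2 and 3, so control culture 1 stood far above the other 5 behind a difference of -0.89. Lcn2, the iron-siderophore carrier lipocalin-2, also peaked there, with 12.71, 10.98 and 10.43 in the controls and 11.57, 10.70 and 10.84 in the treated cultures. Hspb1, a small heat shock protein, differed in pair 3 alone by more than 0.1, with 9.67, 9.04 and 10.37 in the controls and 9.58, 9.02 and 8.92 in the treated cultures. These 5 genes were picked after their values were seen. The list median was -0.12 with 11 of 13 below 0 without control replicate 1, -0.18 without control replicate 3 and -0.19 without 1,25D replicate 1. It was -0.37 with 11 below 0 without control replicate 2. It was -0.25 with 13 below 0 without 1,25D replicate 2 and -0.31 with 11 without 1,25D replicate 3. With both cultures of number 1 left out of the blocked fit it was -0.13, with 10 of 13 below 0. Without number 2 it was -0.36 with 13 below 0, and without number 3 it was -0.20 with 12 below 0.

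**Figure D4:**
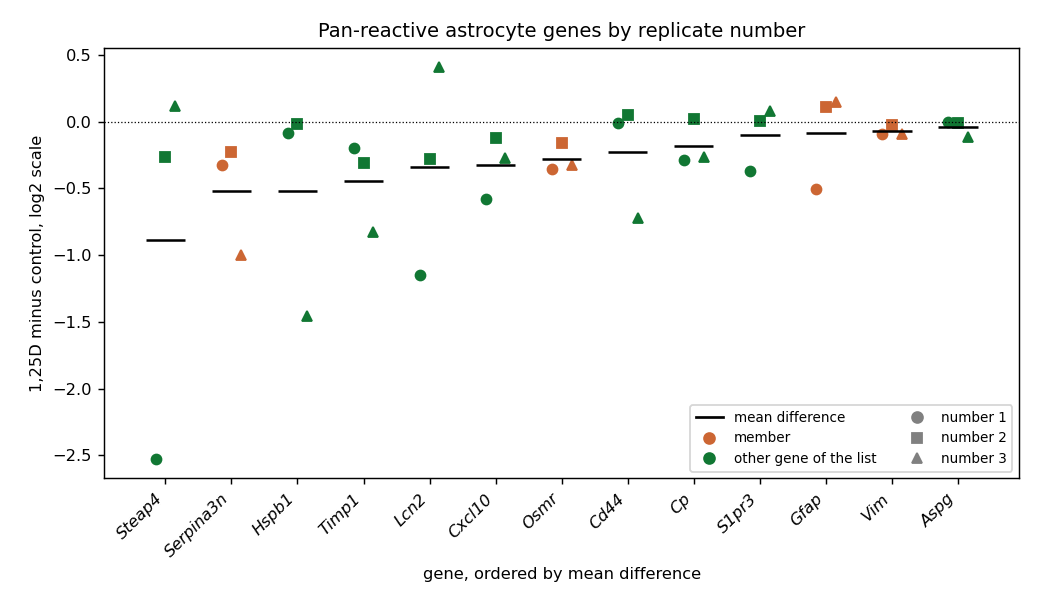
Treated minus control on the log2 scale by pair for the 13 pan-reactive genes, with the mean as a bar, members of the 38 in orange and the other 9 in green. All 13 bars lie below 0, while single pairs carry the largest values, such as pair 1 for Steap4 and Lcn2 and pair 3 for Hspb1.

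No gene passed in the lists for 2 proposed kinds of reactive astrocyte. Of 13 genes of the neuroinflammatory A1 type, 7 had a row and the median was 0.07. Amigo2, an adhesion molecule, had 7.63, 7.41 and 7.60 in control cultures 1, 2 and 3 and 9.13, 8.08 and 7.69 in treated cultures 1, 2 and 3, without overlap. Its difference was 0.75 ± 0.32 (SE), with a limma adjusted p of 1.00. Fkbp5, a glucocorticoid-induced co-chaperone, had -0.17 ± 0.11 (SE). The 12 genes of the A2 type, seen after ischaemia, had a median of 0.07. Emp1, a membrane protein, had 0.46 ± 0.17 (SE) and Clcf1, a cytokine of the Il6 family, had 0.30 ± 0.13 (SE), both without overlap between groups and both with a limma adjusted p of 1.00. Cd14, the lipopolysaccharide co-receptor, was separate in the lower direction with -0.30 ± 0.15 (SE), and was named after its values were seen. Groups were thus separate for 1 of the 7 A1 genes, and for 2 of the 12 A2 genes in the higher and 1 in the lower direction. Over all genes 4.15% were separate, 2.63% higher and 1.52% lower. These lists too were chosen with earlier results of these data known. Among 22 genes of the cytokine, Notch and BMP signals that drive astrocyte formation none passed, the median was -0.02 and no groups separated. Bmp2, a ligand, had -0.26 ± 0.12 (SE) and Bmpr1b, a BMP receptor, had 0.26 ± 0.16 (SE). Stat3 had -0.10 and its inhibitor Socs3 had -0.10.

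A further 34 genes known from astrocytes had a median of 0.02 (-0.01 after median centring), and none passed without the block. With the block 2 of them rose, against 0.0903% of all genes. The list was chosen with earlier results of these data known, so its count cannot be read as an excess over that share. Cbs, the cystathionine synthase, had 8.86, 9.18 and 8.72 in control cultures 1, 2 and 3 and 10.17, 10.30 and 9.71 in treated cultures 1, 2 and 3, a 2.20-fold higher mean (limma adjusted p = 0.31 without the block and 0.024 with it). Slc6a11, a GABA transporter, was 1.82-fold higher (1.00 and 0.024). Dio2, the deiodinase that activates thyroid hormone, had 7.78, 7.70 and 7.80 in the controls and 8.65, 8.71 and 8.47 in the treated cultures, with adjusted p-values (limma) of 0.074 unblocked and 0.051 blocked. Itih3, a hyaluronan-binding protein, and Lcat, which esterifies cholesterol in lipoproteins, also had separate groups, with fold changes of 2.64 and 2.04, and were named after their values were seen. The glutamate transporters Slc1a3 and Slc1a2 of the list had differences of -0.01 ± 0.20 and -0.20 ± 0.29 (SE). Glul, glutamine synthetase, had 0.16 ± 0.15 (SE) and Kcnj10, a potassium channel, had -0.03 ± 0.20 (SE). None of these 4 passed.

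**Figure D5:**
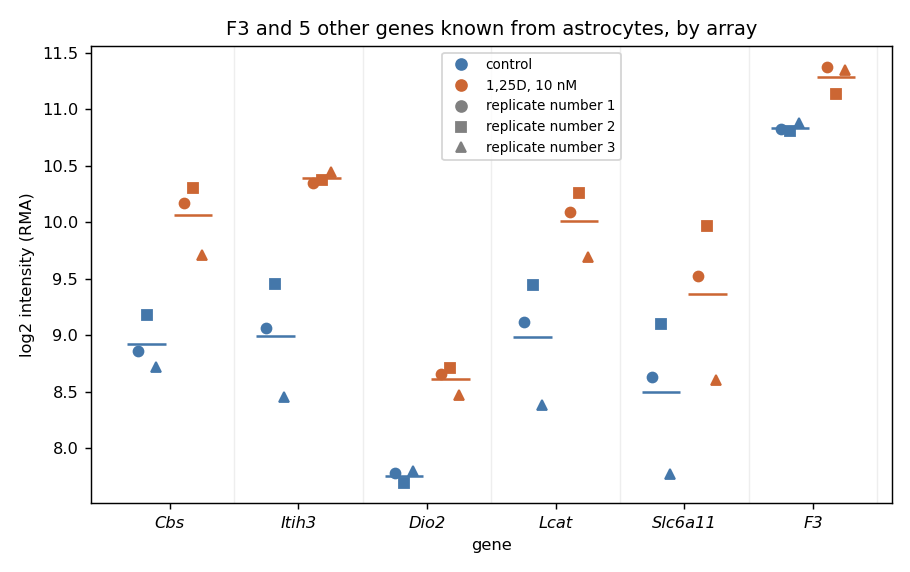
Log2 intensity by array for 5 further genes known from astrocytes and for F3, with controls in blue, 1,25D cultures in orange, a symbol for each replicate number and a bar for the group mean. The groups are separate for Cbs, Itih3, Dio2, Lcat and F3 and overlap for Slc6a11, where each treated culture is above the control of its number.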

How the data were processed

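The deposited values are linear intensities per transcript cluster; the submitters' processing notes name Affymetrix Expression Console and RMA, with no version and no filter. The table held 35556 rows, 21789 of them with 1 gene symbol in GEO's platform annotation (19938 genes). RMA gives no detection call, and for arrays the number of cultures limits the precision. Log2 of the deposited values was tested with limma 3.58.1 in R 4.3.3 (lmFit, eBayes), 1,25D minus control, Benjamini-Hochberg over all 19938 genes, threshold 0.05. The fit was tested on simulated data. Nothing says that same-numbered cultures share a source, but their deviations from the group means correlated across genes (0.51, 0.65 and 0.46 for numbers 1, 2 and 3), so they were treated as pairs, and the blocked fit is given beside the unblocked one. P-values of the unblocked fit rest on the spread between cultures within a group. Those of the blocked fit rest on the spread of the pair differences. With 3 against 3 an exact permutation test cannot go below 0.1.

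The genes and lists were chosen with earlier results of these data known, and no list was tested as a set. Genes with all values given were the 4 largest differences each way, any called or with separate groups, the 4 largest and smallest control SDs, and Gfap, Aqp4, Aldh1l1, S100b, Gja1 and Vim. Of each astrocyte list, called genes or those with the 2 smallest p-values were named. Of the lists of other cells, called genes and some picked after their values were seen were named. Alternatives were the replicate block, quantile normalization, median centring, a filter on the dimmest 25% of genes, the mean of a gene's rows, an intensity trend, array weights and leaving out each culture.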

Additional observations from a re-analysis of the deposited data

How the results depend on the processing

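No value of the 38 astrocyte genes passed the threshold under any setting tried, also where genes of identical replicate 1 values were left out; the lowest adjusted p was 0.177 (limma). Of 492 values of these genes under alternatives, 437 kept their direction and 55 reversed, all for genes whose difference was at most 0.206 in size. The replicate block, the intensity trend and the filter on dim genes cannot change a difference. The mean of a gene's rows can change only Cldn10, Nfia and Nfib, so part of the 437 was fixed in advance. Over all genes 5 were called without the block. With the replicate block, which treats same-numbered cultures as pairs, 18 were called, 22 without the genes of identical replicate 1 values, 25 with quantile normalization and 40 with array weights. Leaving out cultures gave 0 to 45 called genes. These 3 combined settings, and leaving out both cultures of a number in the blocked fit, were chosen after seeing the data. It changed no call of the 38. Quantile normalization turned Slc4a4 to 0.00233 and Tnc to 0.011. Median centring turned Sox9 to -0.018, Acsbg1 to -0.013 and Cst3 to -0.016. Array weights turned Slc4a4 to 0.034, Tnc to 0.028, Acsbg1 to -0.028 and Cst3 to -0.0034. The cause was not tested. With 1 culture left out, the difference ranged from -0.39 to 0.10 for Gfap, from -0.18 to 0.17 for S100b, from -0.13 to 0.0082 for Aldoc, from -0.16 to 0.079 for Gja1, from -0.16 to 0.13 for Sox9, from -0.17 to 0.14 for Slc4a4, from -0.17 to 0.054 for Atp1b2, from -0.25 to 0.061 for Mlc1, from -0.14 to 0.17 for Acsbg1, from -0.10 to 0.37 for Slc39a12, from -0.15 to 0.19 for Hepacam, from -0.44 to 0.27 for Gpr37l1, from -0.52 to 0.12 for Slc15a2, from -0.30 to 0.088 for Slc25a18, from -0.24 to 0.18 for Aass, from -0.10 to 0.10 for Clu, from -0.049 to 0.049 for Cst3, from -0.20 to 0.12 for Tnc and from -0.11 to 0.090 for Ednrb. With 3 cultures a group, differences below the spread between cultures could not be resolved.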
